A study of Homo sapiens with 6 samples.

Results

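The nuclear and cancer-associated long noncoding RNAs described here are 10 transcripts chosen by name, namely MALAT1, NEAT1, H19, PVT1, TUG1, KCNQ1OT1, MEG3, UCA1, HOTAIR and LINC00152, out of 57781 rows of gene counts. A row of its own symbol existed for 9 of them. LINC00152 was read from the row of its current symbol, CYTOR, through the RefSeq synonyms. They were followed in A549 cells, a human lung adenocarcinoma line that the labels call NSCLC (non-small cell lung cancer), in 3 libraries of cells carrying an empty vector (genotype WT) and 3 libraries of METTL3 knockdown cells carrying a short hairpin RNA against METTL3 (shMETTL3). Both groups were grown in the same serum-containing medium, and the comparison asks how transcript levels differ once METTL3 is depleted. The labels number the replicates within a group but do not say whether they are separate cultures or separate hairpin lines, so the tests measure the spread between these libraries.

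METTL3 is the catalytic subunit of the nuclear complex that writes N6-methyladenosine (m6A), a methyl mark on adenosines of messenger and long noncoding RNA. Long noncoding RNAs are transcripts without a large open reading frame. NEAT1 is the scaffold of paraspeckles, MALAT1 accumulates in nuclear speckles where splicing factors are stored, H19, MEG3 and KCNQ1OT1 come from imprinted clusters, and HOTAIR, UCA1, PVT1 and LINC00152 are best known from tumours in which they are abundant.

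The core that METTL3 prefers includes the letters GGACT, in which the A can be methylated. Over the longest annotated transcript of each gene (GENCODE v44 mapped to GRCh37, transcript strand only), GGACT occurred 17 times in the 10434 bases of MALAT1, which is 1.63 per kb, and 14.3% of 13024 tested genes with a transcript of at least 1000 bases were as dense or denser. HOTAIR was the densest of the 10, with 8 matches in 2421 bases (3.30 per kb, reached by 0.499% of those genes). NEAT1 held 19 in 22743 bases (0.84 per kb), TUG1 7 in 7474, MEG3 16 in 12998, KCNQ1OT1 79 in 91667, H19 2 in 2396, PVT1 4 in 2450, LINC00152 4 in 7512 and UCA1 2 in 2688, around a median over genes of 0.91 per kb. The densest 300 bases of MALAT1 are shown because METTL3 acts on this kind of site. They lie in its single exon on the plus strand at chr11:65267546-65267845 (GRCh37), bases 2436 to 2735 of the transcript, with GGACT in capitals.
MALAT1: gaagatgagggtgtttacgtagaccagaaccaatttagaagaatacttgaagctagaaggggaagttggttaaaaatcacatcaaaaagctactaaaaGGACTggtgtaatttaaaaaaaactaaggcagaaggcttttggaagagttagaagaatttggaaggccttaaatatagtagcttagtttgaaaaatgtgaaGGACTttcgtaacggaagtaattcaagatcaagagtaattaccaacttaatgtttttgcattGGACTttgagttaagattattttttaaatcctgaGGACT
This stretch held 4 matches. When the densest 300 bases were sought in the same way in each of 13595 tested genes, 2.09% reached as many, as did 3.74% of the 562 with a transcript at least as long as MALAT1. Methylation itself was not measured in these libraries, and a match is only a match of letters.

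The libraries held between 14931426 and 19108928 counts assigned to genes. Levels are given as CPM, the counts scaled to a common library total, after scaling with trimmed mean of M values (TMM) factors, which were 0.920 to 0.953 in the vector libraries and 1.05 to 1.07 in the shMETTL3 libraries. A count of 3 corresponded to 0.150 to 0.189 CPM, the level below which a transcript is hardly told from absence. METTL3 itself was counted 887, 846 and 808 times with the vector against 364, 399 and 307 times in the knockdown. It fell to 38.8% of the vector level (log2 fold change -1.36 ± 0.067 SE, adjusted p = 4.57e-16, edgeR). The epithelial and A549 markers were all detected, with 2 of 8 higher and 6 of 8 lower, against 33.7% and 32.9% of all tested genes, and their summed level was 16311 to 17027 CPM in vector and 9825 to 10229 CPM in shMETTL3 libraries. They ran from AKR1C1, an aldo-keto reductase abundant in A549 cells, at 0.21 on the log2 scale (adjusted p = 5.32e-04) to EPCAM, an epithelial adhesion molecule, at -2.73 (adjusted p = 7.80e-23, edgeR). Markers of immune, endothelial and fibroblast cells summed to 4.12 to 7.60 CPM in vector and 11.1 to 12.0 CPM in shMETTL3 libraries, and 2 of 7 rows, CD3E and VWF, are listed at 0 everywhere. COL1A1, a fibrillar collagen that carried most of the sum, rose by 0.90 on the log2 scale (adjusted p = 3.47e-06, edgeR), and DCN, a fibroblast proteoglycan, had 0, 0 and 0 counts with the vector and 7, 4 and 2 in the knockdown. Mitochondrial genes took 17.6% to 19.5% of counts in vector and 15.8% to 17.1% in shMETTL3 libraries, and genes of long noncoding type 0.584% to 0.626% and 0.652% to 0.667%. The part of these shifts in the results that follow was not tested. In bulk RNA, fewer cells that make a transcript and less of it per cell cannot be told apart.

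Of the 10 long noncoding RNAs, 8 passed the filter on low counts and were tested, and UCA1 and HOTAIR did not pass. Among the 8 tested, 5 changed in the quasi-likelihood test of edgeR (adjusted p below 0.05), against 66.6% of all 15125 genes tested. MEG3, H19, MALAT1 and NEAT1 were higher in shMETTL3 cells and PVT1 was lower, against 33.7% of all genes higher and 32.9% lower. The CPM of the groups did not overlap for the same 5, against 69.4% of all genes tested. The share that changed was thus near that of genes in general, while the size of the change differed widely from member to member. The median log2 fold change was 0.21 over the 8 and 0.0022 over all tested genes. Among 614 tested genes of long noncoding type, 126 were higher and 173 lower, with a median of -0.15. The type was taken from GENCODE v44 by symbol. A tested long noncoding RNA whose symbol was not matched, or that has another type there, is not among the 614. In a ranking of those 614 by log2 fold change, MEG3 stood 1st, H19 12th, MALAT1 94th and NEAT1 159th.

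**Figure D1:**
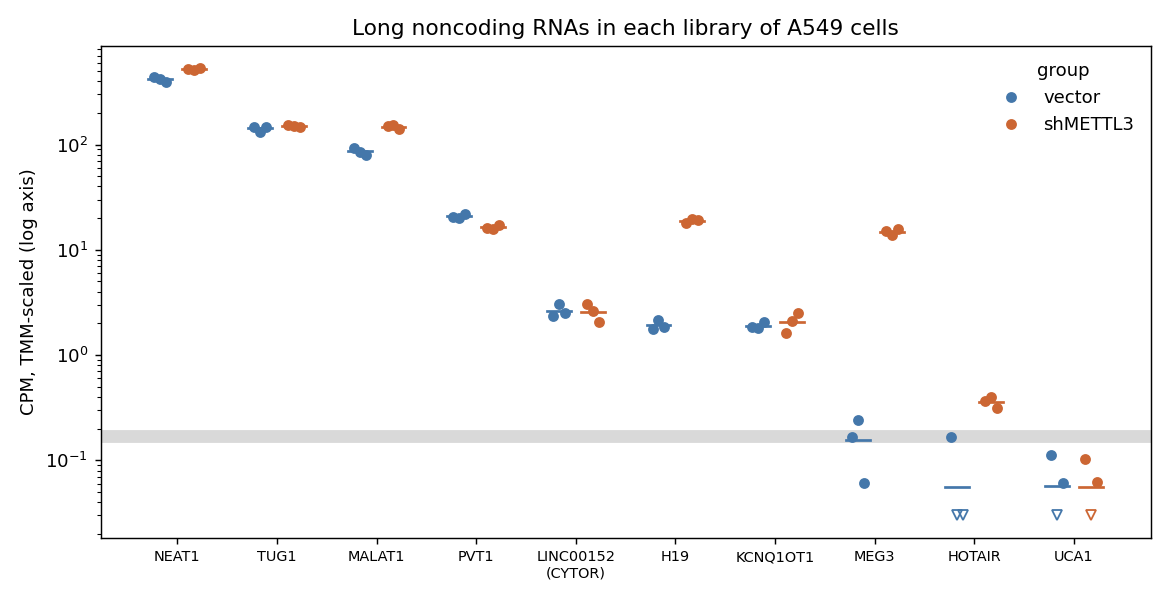
Level of each long noncoding RNA in each library, in TMM-scaled CPM on a log axis. Points are libraries, short lines are group means (n = 3), open triangles are libraries with a count of 0, and the grey band is the level of 3 counts. NEAT1 lies highest, H19 and MEG3 stand far apart between groups, and HOTAIR and UCA1 lie at or near the band.

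**Figure D2:**
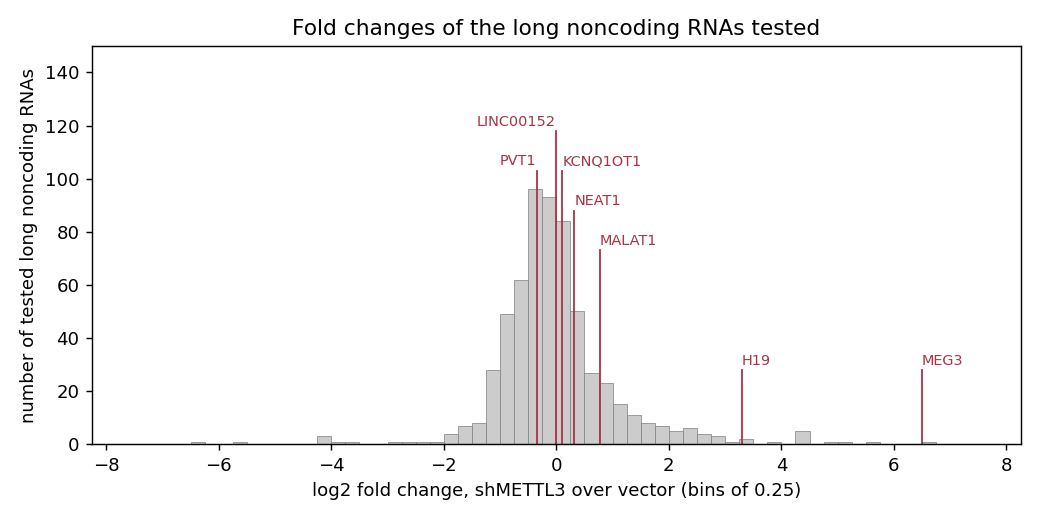
Distribution of log2 fold changes (shMETTL3 over vector) of the 614 tested long noncoding RNAs, in bins of 0.25, with red lines at the members typed as long noncoding. MEG3 at 6.50 and H19 at 3.29 lie in the right tail, while PVT1, LINC00152, KCNQ1OT1 and NEAT1 lie within the bulk. TUG1 is typed as protein coding in the annotation and is not drawn.

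NEAT1, TUG1 and MALAT1 were the most abundant members in both groups. NEAT1 (ENSG00000245532, chr11:65190245-65213011, plus strand, GRCh37) had 437, 422 and 391 CPM in vector cells against 516, 515 and 530 CPM in shMETTL3 cells. Every shMETTL3 library lay above every vector library. NEAT1 ranked 1st by level among the 614 long noncoding RNAs and rose 1.25-fold (log2 0.32 ± 0.051 SE, adjusted p = 3.92e-06, edgeR). Its short and long isoforms share their first part and are summed in a single row, so the long isoform that builds paraspeckles could not be followed by itself.

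MALAT1 (ENSG00000251562, chr11:65265111-65275544, plus strand), the neighbour of NEAT1, had 93.7, 85.5 and 79.3 CPM in vector cells against 149, 152 and 142 CPM in shMETTL3 cells. The groups were well separated, with the lowest knockdown library far above the highest vector library. MALAT1 rose 1.71-fold (log2 0.78 ± 0.058 SE, adjusted p = 3.55e-12, edgeR). MALAT1 ends in a triple helix rather than a poly(A) tail, and whether the libraries were poly(A) selected is not given in the sources used here. An antisense transcript, TALAM1, overlaps 8121 of its bases and had no row. Whether reads were counted by strand is not given, so its reads could be counted with those of MALAT1.

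Both genes rose, but not in proportion. Within a library the ratio of NEAT1 counts to MALAT1 counts, which no scaling of the library can alter, was 4.67, 4.93 and 4.93 in vector cells and 3.46, 3.38 and 3.73 in shMETTL3 cells. The ratios did not overlap and differed by -0.46 on the log2 scale (exact permutation test, two-sided p = 0.1, as small as 3 against 3 can give). Together they took 0.0432% to 0.0505% of all counts in vector and 0.0700% to 0.0714% in shMETTL3 libraries. Of the listed protein-coding neighbours of this pair, FRMD8 (-0.05), LTBP3 (-0.13) and SLC25A45 (0.0023, all log2 fold changes) did not pass the test. LTBP3 passed without vector replicate 1 (-0.19, adjusted p = 0.0101) and without vector replicate 2 (-0.16, adjusted p = 0.0377).

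TUG1 (ENSG00000253352, chr22:31365231-31375381, plus strand), a ubiquitous RNA first described in the retina, had 147, 132 and 147 CPM in vector and 154, 151 and 147 CPM in shMETTL3 libraries. The groups overlapped, and its difference of 0.09 ± 0.053 SE on the log2 scale did not pass the test (adjusted p = 0.154, edgeR). This call depends on the scaling, because with library size alone, which moves the median log2 fold change of all genes from 0.0022 to 0.18, TUG1 was 0.26 higher (adjusted p = 1.42e-04). Its neighbours went both ways, with SMTN, a smooth muscle cytoskeletal protein, at 0.38 (adjusted p = 0.0045) and MORC2, a chromatin ATPase, at -0.39 (adjusted p = 9.93e-06, edgeR). Per kb of the longest transcript, TUG1 (19.01 CPM per kb ± 1.16 SD, n = 3) and NEAT1 (18.3 ± 1.05) did not differ beyond their spread in vector cells, and MALAT1 was lower (8.26 ± 0.69). In shMETTL3 cells the order was NEAT1 (22.9 ± 0.36), TUG1 (20.2 ± 0.48) and MALAT1 (14.2 ± 0.51). The NEAT1 row sums a short and a long isoform, but its level was divided by the length of the longest transcript. Reads from the short isoform make the NEAT1 value per kb too low. Its place relative to TUG1 in either group is therefore uncertain.

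Of the imprinted RNAs, MEG3 and H19 held the largest changes of the 8 tested members, and KCNQ1OT1 did not pass the test. MEG3 (ENSG00000214548, chr14:101245747-101327368, plus strand), a maternally expressed RNA with growth-restraining activity, was counted 3, 4 and 1 times in vector cells against 290, 279 and 249 times in the shMETTL3 libraries. It was at the edge of detection in each vector library and clearly present in each knockdown library. The summed counts were 818 against 8, a TMM-scaled ratio of 94.4 with an exact 95% counting interval of 47.7 to 219, and the fitted log2 fold change was 6.50 ± 0.24 SE (adjusted p = 6.52e-19, edgeR). MEG3 reached 14.9 CPM ± 0.89 (SD, n = 3) in shMETTL3 cells and ranked 16th of all tested genes by log2 fold change. Because its vector counts are below 10, a filter that asks for 10 counts in every library removes it from the test.

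The other listed genes of the MEG3 cluster had few counts or none. MEG9, a noncoding RNA downstream of MEG3, had no counts with the vector and 8, 6 and 3 in the knockdown libraries, and MEG8 had 0 in all vector libraries and 0, 3 and 4 in the knockdown libraries. DLK1, the paternally expressed partner of MEG3 and a membrane protein related to Notch ligands, had 1 count in a single vector library and 0 elsewhere, and RTL1 is listed at 0, which does not tell absence from a row that could not be counted. None of these rows passed the filter. BEGAIN, a synaptic scaffold gene within 500 kb of MEG3 that was not in the list, rose from 3.64 ± 0.50 to 10.5 ± 0.77 CPM (SD, n = 3, log2 1.52, adjusted p = 1.87e-10, edgeR), and YY1, a zinc finger transcription factor, fell by 0.31 (adjusted p = 4.19e-06), while WDR25 (-0.20) and SLC25A29 (-0.04), the other tested genes in that window, did not pass.

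H19 (ENSG00000130600, chr11:2016396-2025782, minus strand), an abundant fetal RNA that is maternally expressed, had 1.78, 2.15 and 1.84 CPM in vector cells against 17.9, 19.7 and 19.2 CPM in shMETTL3 cells. The knockdown libraries lay close together and far above the vector libraries. The summed counts were 1045 against 98, a ratio of 9.84 with an exact 95% counting interval of 7.99 to 12.2, and the log2 fold change was 3.29 ± 0.13 SE (adjusted p = 5.28e-18, edgeR). IGF2, the reciprocally imprinted growth factor next to H19, had 6, 6 and 0 counts in vector and 103, 112 and 78 in shMETTL3 libraries. IGF2 thus rose as well, from 12 to 293 summed counts (ratio 22.5, interval 12.7 to 44.1, log2 4.45 ± 0.33 SE, adjusted p = 2.59e-12, edgeR). MRPL23, a mitochondrial ribosomal protein gene on the other side of H19, moved the opposite way, from 43.7 ± 2.84 to 23.0 ± 0.58 CPM (SD, n = 3), a log2 fold change of -0.92 (adjusted p = 5.00e-12, edgeR). IFITM10, within 500 kb of H19 but not in the list, had 22, 17 and 17 counts in vector and 308, 331 and 253 in shMETTL3 libraries. It rose by 3.87 on the log2 scale (adjusted p = 3.17e-18, edgeR). Of the 14 tested genes in that window, 6 were higher and 3 lower, against 33.7% and 32.9% of all tested genes.

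H19 and MEG3 are also hosts of microRNAs, whose mature sequences are shown because a host's level does not report them. Mature microRNAs were not measured here. The sequences are those of RefSeq on GRCh38.p14, with the seed (bases 2 to 8) in capitals. The pair from H19 lies at chr11:1996800-1996822 (5p) and chr11:1996768-1996787 (3p) on the minus strand, and the one from MEG3 at chr14:100852409-100852431 on the plus strand.
hsa-miR-675-5p: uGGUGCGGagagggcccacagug
hsa-miR-675-3p: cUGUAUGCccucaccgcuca
hsa-miR-770-5p: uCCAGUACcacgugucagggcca
All seeds differ, so none of these microRNAs shares a seed family with another.

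KCNQ1OT1 (ENSG00000269821, chr11:2618538-2721233, minus strand), the paternally expressed antisense RNA that silences its imprinted domain in cis, had 1.84, 1.80 and 2.08 CPM in vector and 1.61, 2.09 and 2.52 CPM in shMETTL3 libraries. The shMETTL3 libraries spanned the vector range on both sides. Its difference of 0.11 ± 0.23 SE on the log2 scale did not pass the test (adjusted p = 0.696, edgeR), and at this level a change of moderate size could not be detected. Genes that it is known to act on differed among themselves. KCNQ1, a potassium channel subunit whose gene it crosses in antisense, had 0.446, 0.838 and 1.16 CPM in vector and 3.83, 2.99 and 2.27 CPM in shMETTL3 libraries (log2 1.92 ± 0.29 SE, adjusted p = 1.72e-06, edgeR). CDKN1C, an inhibitor of cyclin-dependent kinases, rose by 0.98 (adjusted p = 0.00264), PHLDA2, a growth-restraining placental gene, fell by 0.40 (adjusted p = 0.00665), and SLC22A18, a membrane transporter, was at -0.19 and did not pass (adjusted p = 0.0888). Without shMETTL3 replicate 1 PHLDA2 was at -0.32 and did not pass (adjusted p = 0.0530), and without vector replicate 1 SLC22A18 passed at -0.25 (adjusted p = 0.0443). Exons of KCNQ1OT1 and KCNQ1 share 121 bases on opposite strands, and without a stated strand setting reads there cannot be assigned to one of the genes.

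**Figure D3:**
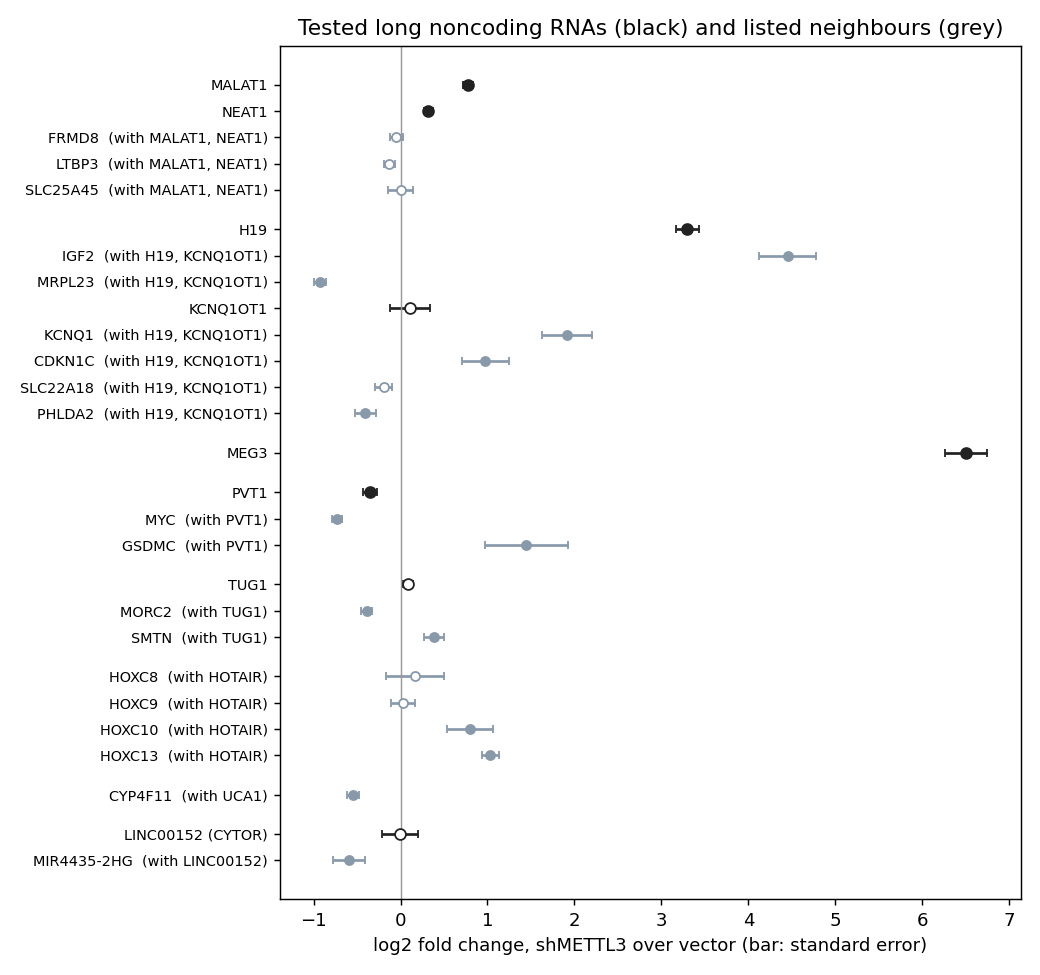
Log2 fold change (shMETTL3 over vector) with its standard error for the 8 tested long noncoding RNAs (black) and tested genes listed with them by locus (grey), grouped by locus. Filled points passed an adjusted p of 0.05 and open points did not. H19 and IGF2 lie far to the right together, KCNQ1OT1 lies near 0 beside KCNQ1 at 1.92, and PVT1 and MYC both lie left of 0.

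PVT1 (ENSG00000249859, chr8:128806772-129199347, plus strand), the RNA downstream of MYC that is amplified with it in tumours, had 20.5, 20.2 and 21.8 CPM in vector cells against 16.1, 15.9 and 17.2 CPM in shMETTL3 cells. It was lower in each knockdown library, with a log2 fold change of -0.35 ± 0.082 SE (adjusted p = 4.97e-04, edgeR). With library size alone as the scaling the difference was -0.17 and no longer passed (adjusted p = 0.0631). MYC, the transcription factor that drives growth, had 148, 153 and 168 CPM in vector and 93.1, 92.2 and 98.1 CPM in shMETTL3 libraries (log2 -0.73 ± 0.055 SE, adjusted p = 5.06e-12, edgeR). GSDMC, a gasdermin on the far side of PVT1, was low in both groups and rose by 1.45 on the log2 scale (2, 7 and 5 against 11, 16 and 15 counts, adjusted p = 0.00896), which did not pass without vector replicate 1 (1.05, adjusted p = 0.0739).

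PVT1 and MYC fell by unequal amounts. The ratio of PVT1 to MYC counts within a library was 0.138, 0.132 and 0.130 in vector cells and 0.173, 0.172 and 0.175 in shMETTL3 cells. It was higher in every knockdown library, by 0.38 on the log2 scale (exact permutation test, two-sided p = 0.1, as small as 3 against 3 can give).

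LINC00152 (CYTOR, ENSG00000222041, chr2:87754300-87936259, plus strand), a cytoplasmic RNA linked to proliferation, was counted 42, 51 and 41 times in vector and 59, 53 and 33 times in shMETTL3 libraries. The groups overlapped widely, at 2.64 ± 0.37 and 2.59 ± 0.49 CPM (SD, n = 3), and the log2 difference was -0.01 ± 0.21 SE (adjusted p = 0.975, edgeR). Its near-identical copy on the same chromosome, MIR4435-1HG (row MIR4435-2HG), had 109, 67 and 67 counts in vector and 60, 61 and 53 in shMETTL3 libraries and fell by 0.59 on the log2 scale (adjusted p = 0.0053, edgeR). This call rested on vector replicate 1, without which the difference was -0.37 and did not pass (adjusted p = 0.0887). Reads that match both copies may have been discarded or split, so both levels are uncertain. The ratio of LINC00152 to its copy was 0.385, 0.761 and 0.612 in vector and 0.983, 0.869 and 0.623 in shMETTL3 libraries, which overlapped (exact permutation test, two-sided p = 0.2). Adjusted over the 3 ratios compared, the exact p-values were 0.15, 0.15 and 0.2. No change of the LINC00152 ratio between the groups beyond the spread of the libraries was seen.

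**Figure D4:**
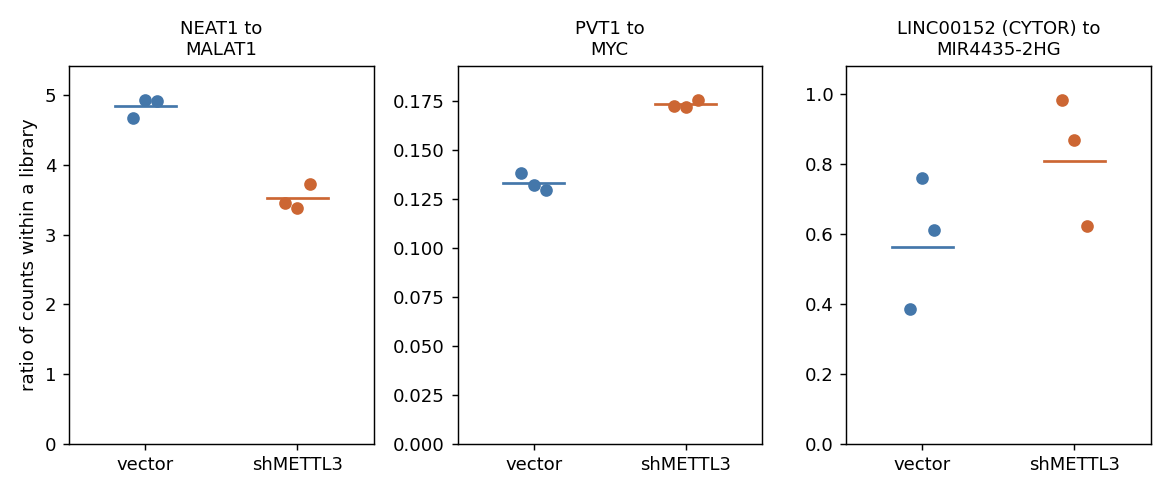
Ratio of the counts of paired genes within each library (points) with the geometric mean of each group (lines, n = 3); each axis starts at 0. The NEAT1 to MALAT1 ratio was lower and the PVT1 to MYC ratio higher in every shMETTL3 library, and the ratio of LINC00152 to MIR4435-2HG overlapped between groups.

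The remaining members were barely detected. HOTAIR (ENSG00000228630, chr12:54356092-54368740, minus strand), an RNA of the HOXC cluster known as a partner of chromatin-modifying complexes, had 3, 0 and 0 counts in vector and 7, 8 and 5 counts in shMETTL3 libraries. Every knockdown library lay above every vector library, and the summed counts of 20 against 3 gave a ratio of 6.15 with an exact 95% counting interval of 1.82 to 32.3. Counting intervals here cover counting error only. HOTAIR did not pass the filter on low counts. Its adjusted p was 0.0171 with edgeR when no filter was applied and 0.0747 with DESeq2. Of the HOXC genes around it, HOXC13 rose by 1.03 (adjusted p = 4.80e-10) and HOXC10 by 0.80 (adjusted p = 0.00948), HOXC8 (0.17) and HOXC9 (0.03) did not pass, and HOXC11, beside HOTAIR, had 0, 0 and 1 against 4, 4 and 4 counts. HOXC10 did not pass without vector replicate 1 (0.63, adjusted p = 0.0551) or without shMETTL3 replicate 2 (0.59, adjusted p = 0.0963).

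UCA1 (ENSG00000214049, chr19:15939016-15947138, plus strand), an RNA named for urothelial cancer, had 2, 0 and 1 counts in vector and 2, 0 and 1 in shMETTL3 libraries. With 3 counts in each group it was at the limit of detection and no difference could be measured. CYP4F11, a fatty acid hydroxylase gene nearby, fell from 46.2 ± 3.58 to 31.5 ± 0.77 CPM (SD, n = 3, log2 -0.55, adjusted p = 6.28e-08, edgeR). Over all 20 tested neighbours in the list, 7 were higher and 7 lower, with a median log2 fold change of -0.02, which is near the 33.7% higher and 32.9% lower of all tested genes.

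Transcripts of genes whose proteins work with these RNAs differed in both directions, and the shares that changed are to be read against the 66.6% of all genes that changed, 33.7% higher and 32.9% lower. Of 15 paraspeckle protein genes tested, 5 were higher and 5 lower (median -0.04). They ran from CPSF6, a 3' end processing factor, at 0.48 (adjusted p = 1.38e-08) to RBM14, needed for paraspeckle assembly, at -0.62 (adjusted p = 2.49e-08, edgeR). Of 12 nuclear speckle genes tested, 5 were higher and 3 lower (median 0.08). The splicing factor SRSF1, which binds MALAT1, was at 0.56 (adjusted p = 3.55e-08) and SRRM1, a splicing coactivator, at -0.18 (adjusted p = 0.0106). Without shMETTL3 replicate 1 none of the 3 lower genes passed, namely SRRM1 (adjusted p = 0.0541), ACIN1 (0.0836) and RNPS1 (0.0770). Of the higher genes, SON (adjusted p = 0.183) and PNISR (0.0750) did not pass in that run, while SRRM2 did (0.15, adjusted p = 0.0453). Of 11 tested genes that trim the 3' end of MALAT1 or bind it, 5 were higher and 2 lower (median 0.06). They ran from RPP40 at 0.45 (adjusted p = 0.0041) to POP1 at -1.06 (adjusted p = 2.22e-14), both subunits of RNase P. Of the 5 higher genes, RPP25 (adjusted p = 0.0622) and POP4 (adjusted p = 0.0587) did not pass without vector replicate 1. Each median lay within 0.1 of that of all genes. The split by direction depends on the scaling: with library size alone, 9 of 11 changed paraspeckle genes, 8 of 8 speckle genes and 7 of 9 MALAT1-related genes were higher, against 65.8% of all changed genes under that scaling.

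Among 9 tested genes of the PRC2 and LSD1 complexes, which HOTAIR and other long noncoding RNAs are reported to bind, 2 were higher and 4 lower (median -0.12), in a background in which 66.6% of genes changed. Of the 2 higher, EED did not pass without vector replicate 3 (0.14, adjusted p = 0.134) or without shMETTL3 replicate 2 (0.22, adjusted p = 0.0733). Of the 4 lower, EZH1 did not pass without vector replicate 1 (adjusted p = 0.0518) or without shMETTL3 replicate 1 (adjusted p = 0.0693). RBBP7, a histone-binding subunit, was at 0.44 (adjusted p = 8.78e-09), and EZH2, the histone H3 methyltransferase of PRC2, fell from 34.8 ± 3.52 to 19.8 ± 0.76 CPM (SD, n = 3, log2 -0.81, adjusted p = 7.03e-10, edgeR). Of 4 nuclear m6A reader genes, 3 were tested and 1 fell, HNRNPA2B1, at -0.39 (adjusted p = 1.09e-07). YTHDC1, the nuclear reader best known for binding MALAT1, is listed at 0 in all 6 libraries, and nothing is drawn from that row. With library size alone, 3 of 5 changed PRC2 and LSD1 genes and 2 of 3 changed reader genes were higher.

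Of 27 other tested long noncoding RNAs with a known link to cancer, 6 were higher and 10 lower, with a median of -0.05, against the 33.7% higher and 32.9% lower of all tested genes. The highest of the more abundant ones were LINC00511, from 6.51 ± 0.72 to 27.7 ± 0.53 CPM (SD, n = 3, log2 2.09, adjusted p = 7.30e-17), MIR22HG, the host of a microRNA, at 1.03 (adjusted p = 2.02e-12) and LINC-PINT, a p53-induced RNA, at 0.95 (adjusted p = 1.76e-05). The lowest were FOXD2-AS1 at -1.49 (adjusted p = 1.37e-05), SBF2-AS1 at -1.09 (adjusted p = 2.01e-05) and LINC01133 at -0.96 (adjusted p = 6.18e-04, all edgeR). With library size alone 9 of 17 changed genes of this list were higher, so no direction is read from the list.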

How the data were processed

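RNA of 3 vector and 3 shMETTL3 A549 samples was sequenced. The deposited values are raw counts per gene symbol; the submitters' processing notes name cutadapt 3.0, HISAT2 2.2.1, SAMtools 1.13, HTSeq 0.13.5 and hg19. The gene annotation, strand setting and RNA selection are not given in the sources used here. Counts were filtered with filterByExpr (15125 of 57781 genes kept) and scaled by TMM. They were compared with edgeR 4.0.16 quasi-likelihood tests without covariates under R 4.3.3, with Benjamini-Hochberg adjustment over all tested genes. P-values labelled adjusted come from this fit unless a library left out, another scaling or filter, or DESeq2 is named with them. Alternatives used DESeq2 1.42.0, limma 3.58.1, other scalings, filters and thresholds, and each library left out, which for genes of the other lists was added after seeing the data. Counting intervals are exact conditional binomial intervals at 95%.

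The members and gene lists were chosen with earlier results of these data known. Genes named were the 10 members, METTL3, the tested genes of the locus list and, for other lists, the called genes with the highest and lowest log2 fold change at an average log2 CPM of at least 1 (1 each way, 3 each way for other cancer-associated long noncoding RNAs). MEG8, MEG9, DLK1, RTL1, BEGAIN, YY1, WDR25, SLC25A29, HOXC11, DCN, CD3E, VWF and YTHDC1 were named after their values were seen. So were IFITM10, SON, PNISR, ACIN1, RNPS1, SRRM2, RPP25, POP4, EED and EZH1. A gene of the locus list is counted but not reported here. Older symbols were matched through RefSeq synonyms.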

Additional observations from a re-analysis of the deposited data

How the results depend on the processing

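The count of changed members, 5, stayed within 1.5 times under each alternative run except a minimum absolute log2 fold change of 1, which leaves 2 (MEG3 and H19). It was 6 with no filter, which adds HOTAIR, and 4 when 10 counts were required in every library, which leaves MEG3 untested. MALAT1 (0.72 to 0.95), NEAT1 (0.27 to 0.49), H19 (3.23 to 3.47) and METTL3 (-1.38 to -1.19) kept direction and call in 15 alternatives, and MEG3 (6.14 to 6.90) in 14. Library size alone removed PVT1 (-0.17), added TUG1 (0.26) and gave 3 changed nuclear m6A reader genes in place of 1. With it, 65.8% of changed genes were higher, against 50.6% with TMM. Replicate numbers did not pair the libraries (correlations of deviations 0.07, -0.02 and 0.04). With a replicate block 5 members and 10111 genes changed, against 10067 without it. The within-library ratios kept their direction in each alternative, but the LINC00152 ratio difference of 0.52 was 0.25 without vector replicate 1 and 0.74 without vector replicate 2.

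Counts under 10 limit MEG3 in vector cells, and HOTAIR and UCA1 throughout, and the call of HOTAIR without a filter was not made by DESeq2 (adjusted p = 0.0747). With 3 libraries a group, an exact test of a single ratio cannot go below 0.1.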

Other observations

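The tested genes within 500 kb of each member were counted after the lists had been examined. Over all tested genes, 33.7% were higher and 32.9% lower, and the counts are to be read against these shares. Around MALAT1, 3 of 40 were higher and 21 lower, with a median log2 fold change of -0.26, with NEAT1 among the 3 that were higher. Around TUG1, 10 of 18 were higher and 3 lower (median 0.28). Around KCNQ1OT1, 6 of 11 were higher and 2 lower (median 0.45), and around H19 6 of 14 were higher and 3 lower (median 0.09). The 3 tested genes around PVT1, namely MYC, PCAT1 and CASC8, were all lower, with a median of -1.17. Around NEAT1, 3 of 39 were higher and 20 lower, around HOTAIR 8 of 22 and 8, and around UCA1 2 of 13 and 7. Around MEG3 only 4 genes were tested, 1 higher and 1 lower, and around LINC00152 only 1, which was higher. Neighbouring genes are not independent of each other, and these counts carry no test.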
